A study of Mus musculus with 40 samples.

Results

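The step in dose from 0.3 to 1 μg/kg TCDD was examined in mouse liver, from RNA-Seq libraries of 5 mice at 0.3 μg/kg and 5 mice at 1 μg/kg, which are 10 of the 40 libraries in the series. Libraries were chosen by their dose label alone, and no vehicle library entered the comparison itself, although all 40 libraries shared the estimate of the spread between mice. All 10 mice were male C57BL/6 animals, 30 days old at the start and 58 days old at the end, and received TCDD, the most toxic of the chlorinated dioxins, in sesame oil by oral gavage at intervals of 4 days, with 7 administrations over 28 days. The other 30 libraries, 5 per group, came from mice given sesame oil alone (vehicle) or TCDD at 0.03, 0.1, 3, 10 or 30 μg/kg on the same schedule, and they are used here to place the step within the dose range. Each library came from the whole liver of 1 mouse, so it mixes hepatocytes with resident immune, endothelial and stellate cells.

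TCDD is a persistent contaminant and the prototypical ligand of the aryl hydrocarbon receptor (AhR). In the absence of ligand the AhR stays in the cytosol in a complex with HSP90. Once bound it enters the nucleus, pairs with ARNT and binds dioxin response elements, whose core is GCGTG, near genes of xenobiotic metabolism such as the cytochrome P450 genes Cyp1a1, Cyp1a2 and Cyp1b1. The AhR repressor Ahrr and the ADP-ribosyltransferase Tiparp are themselves induced and restrain the receptor. Immune cells of the liver also carry the AhR, and prolonged exposure to TCDD is known to bring inflammatory cells into the mouse liver.

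The 10 libraries held 15.9 M to 21.0 M counts in genes (M, 1e6), and no pair of libraries within a dose looked like copies of each other. Albumin (Alb), the defining hepatocyte transcript, was by far the most abundant marker, at 68238 CPM (counts per 1e6 counts of a library, after scaling) on average at 0.3 μg/kg and 64056 CPM at 1 μg/kg. The reference genes Hprt, Actb and Gapdh differed between the doses by 0.08 ± 0.11, −0.16 ± 0.13 and −0.27 ± 0.13 on the log2 scale (fitted change ± SE), and none was called. Scaling factors were 0.898 to 0.951 at 0.3 μg/kg and 0.954 to 1.04 at 1 μg/kg, so they did not overlap between the doses.

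A gene was called when edgeR's quasi-likelihood test gave a Benjamini-Hochberg adjusted p under 0.05 and the fitted fold change was at least 1.5. Of 15373 genes tested, 37 were called between 0.3 and 1 μg/kg (0.241% of those tested), 35 higher at 1 μg/kg (0.228%) and 2 lower (0.013%). Among the genes that rose were the listed AhR targets Cyp1b1, Ahrr and Pmm1, the listed MHC class II genes Ciita and H2-Eb1, and the listed acute phase genes Saa1 and Saa2, whereas 29 of the 37 called genes were in no list. The 2 genes that fell were Arsg and Hcn3. In 34 of the 37 genes the 5 mice at one dose did not overlap with the 5 at the other (all genes tested: 2.76%). The calls were made on these same mice, so this separation largely follows from the call rule and adds no separate evidence. The median change over all genes tested was 0.01 on the log2 scale, and 1011 genes had an unadjusted p under 0.05, of which 712 were higher at 1 μg/kg.

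The count of calls depended on single libraries. It was 12 without replicate 3 at 0.3 μg/kg, 18 without replicate 5, 21 without replicate 1 and 24 without replicate 2 of that dose, 24 without replicate 5 at 1 μg/kg, and 26 to 42 without any other library. Of the 37 genes 12 were called in each of these 10 fits, among them Ahrr, Cyfip2, Cyp1b1, Cyth4, Entpd2, Exoc3, Fabp12, Fhit, Insl6, Ism2 and Nptx1. All 37 genes kept their sign in every leave-one-out fit, which largely follows from calling them on these same mice.

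**Figure D1:**
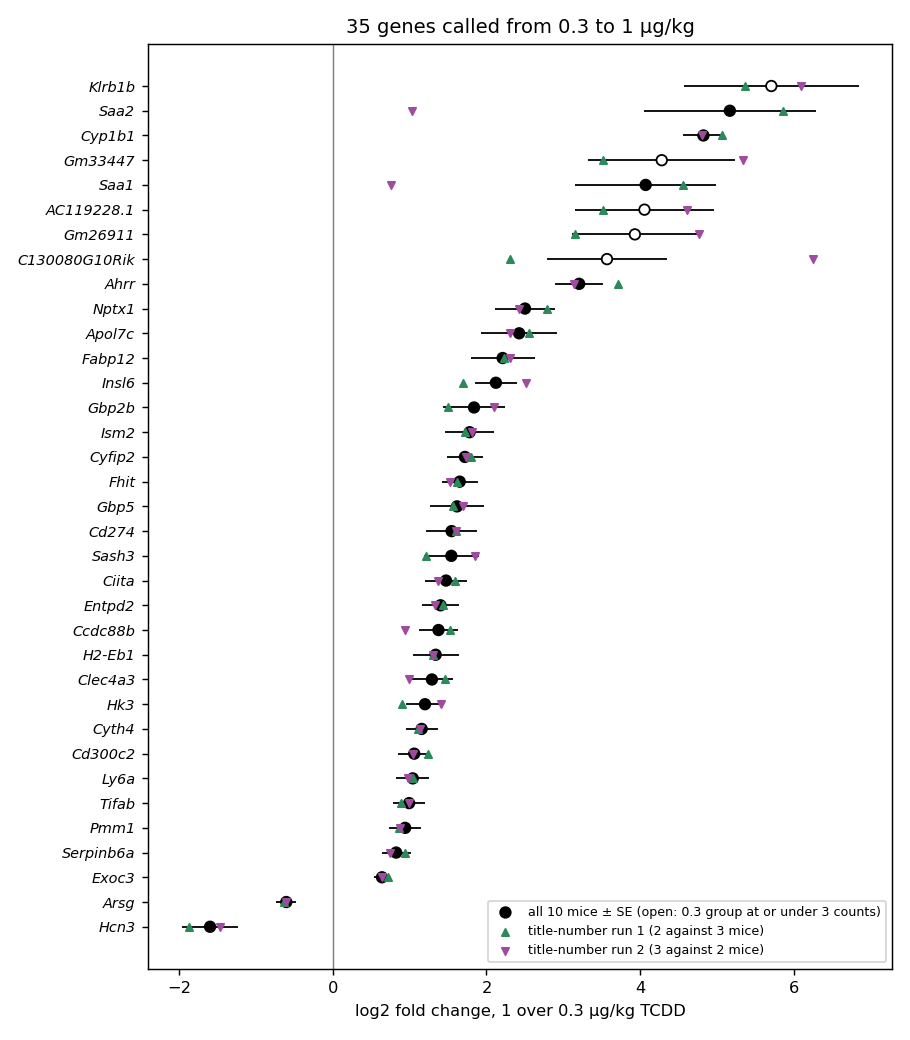
Fitted log2 fold change from 0.3 to 1 μg/kg for 35 of the 37 called genes, with the SE of the fit as bars and the estimate within each of 2 runs of sample title numbers as triangles (open circles have every mouse at 0.3 μg/kg at or under 3 counts, so their position depends on the prior count). Every triangle lies on the same side of 0 as the estimate from all 10 mice, which largely follows from how the genes were called. The widest gaps between run 1 and run 2 are those of Saa2 (5.86 and 1.04), C130080G10Rik (2.30 and 6.25) and Saa1 (4.55 and 0.75).

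Sample titles fall into 2 numbering runs, of which run 1 holds 2 mice at 0.3 and 3 at 1 μg/kg and run 2 holds 3 and 2. The labels do not say what the runs are. All 37 genes had the same sign in both runs, which largely follows from calling them on these same mice. By edgeR's quasi-likelihood test 4 genes were called within run 1 alone and 5 within run 2 alone. No gene was called for a difference between the runs by that test, although 343 genes had an unadjusted p under 0.05. The 4 genes Ahrr, Cyfip2, Cyp1b1 and Exoc3 were called in each run by itself.

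The first group of interest was the AhR battery. Of 12 listed AhR target genes 11 were tested, 4 were called, all 11 had a positive log2 change and 10 were higher without overlap between the doses. Over all genes tested 0.241% were called and 1.77% were higher without overlap. Their median change was 0.84 on the log2 scale, against 0.01 over all genes tested. The list was drawn up with earlier results of these data known, so it is not independent evidence of a direction. The promoters of 4 of them are shown as examples, each with the GCGTG core within the 250 bases before the RefSeq start (GRCm38.p6). Each sequence runs 5′ to 3′ on the strand of the gene, and the core, on either strand, is in capitals.
Cyp1b1 (chr17:79715062-79715311, minus strand): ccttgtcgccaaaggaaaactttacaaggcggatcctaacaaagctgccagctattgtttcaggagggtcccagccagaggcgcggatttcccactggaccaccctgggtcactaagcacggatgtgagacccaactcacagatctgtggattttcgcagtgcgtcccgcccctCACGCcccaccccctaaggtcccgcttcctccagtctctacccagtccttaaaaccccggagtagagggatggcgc
Ahrr (chr13:74292332-74292581, minus strand): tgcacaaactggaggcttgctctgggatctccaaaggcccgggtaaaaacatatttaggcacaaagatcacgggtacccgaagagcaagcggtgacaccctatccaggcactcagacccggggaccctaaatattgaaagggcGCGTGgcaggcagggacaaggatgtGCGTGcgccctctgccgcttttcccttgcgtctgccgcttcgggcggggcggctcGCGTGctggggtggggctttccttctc
Cyp1a1 (chr9:57697363-57697612, plus strand): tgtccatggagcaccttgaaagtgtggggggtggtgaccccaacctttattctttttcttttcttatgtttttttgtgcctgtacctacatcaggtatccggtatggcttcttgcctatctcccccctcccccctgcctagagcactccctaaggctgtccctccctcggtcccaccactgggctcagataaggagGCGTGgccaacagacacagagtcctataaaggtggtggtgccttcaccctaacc
Pmm1 (chr15:81960931-81961180, minus strand): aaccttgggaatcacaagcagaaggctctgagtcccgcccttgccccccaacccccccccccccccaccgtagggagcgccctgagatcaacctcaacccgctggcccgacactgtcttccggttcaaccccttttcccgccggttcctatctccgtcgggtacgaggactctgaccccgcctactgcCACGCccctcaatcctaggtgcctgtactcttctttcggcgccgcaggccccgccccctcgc
The Ahrr window holds 3 copies, beginning 107, 82 and 27 bases before the start, and the windows of Cyp1b1, Cyp1a1 and Pmm1 hold 1 each, beginning 76, 54 and 62 bases before it. The motif was not particular to the genes of this step. Over windows from 250 bases before to 50 after the start, GCGTG or its complement CACGC was found in 10 of the 27 genes that rose and have a RefSeq promoter (37%), in 53.2% of the tested genes with one and in 35.2% of all genes in the promoter table. Of 10 AhR targets with an entry 6 held it (60%), among them Tiparp and Ugdh, which are not shown. Cyp1a2, Fmo2, Nqo1 and Ugt1a6a did not hold it. A match is a run of letters and not evidence of binding.

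Cyp1b1, a P450 that hydroxylates oestradiol and polycyclic hydrocarbons, showed the clearest rise. It stood at 2.95, 2.59, 4.30, 3.52 and 4.51 CPM in the 5 mice at 0.3 μg/kg and at 100.1, 77.0, 101, 142 and 88.1 CPM at 1 μg/kg. The doses were far apart in every mouse, a 28.3-fold rise (log2 4.82 ± 0.26 SE, edgeR adjusted p = 3.23e-16). Vehicle mice held 0.308 ± 0.268 CPM (SD, n = 5), so the gene was low at 0.3 μg/kg and abundant only 1 dose later.

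Ahrr, which competes with the AhR for ARNT, rose 9.24-fold over the step (log2 3.21 ± 0.31 SE, edgeR adjusted p = 1.42e-08). Its levels were 1.45, 0.824, 3.09, 1.92 and 2.02 CPM at 0.3 μg/kg against 19.1, 14.9, 11.1, 19.3 and 22.2 CPM at 1 μg/kg. Again no mouse at the lower dose reached the range of the higher one. Exoc3, a subunit of the exocyst vesicle-tethering complex and the neighbour of Ahrr in the genome, rose 1.56-fold (39.9 ± 4.09 to 62.2 ± 4.97 CPM, SD, n = 5 each, edgeR adjusted p = 0.000642). Its 5 mice at 0.3 μg/kg lay between 35.0 and 44.8 CPM and those at 1 μg/kg between 56.3 and 66.9 CPM. The libraries keep no strand, and whether transcription extends from one of these genes into the other was not tested.

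Pmm1, a phosphomannomutase, rose 1.92-fold (11.2 ± 3.07 CPM at 0.3 μg/kg, 21.7 ± 4.49 CPM at 1 μg/kg, SD, n = 5 each, edgeR adjusted p = 0.0312), and this call was lost when any of 6 of the 10 libraries was left out, with adjusted p from 0.0774 to 0.145.

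The best-known AhR targets had smaller differences over this step. Cyp1a1 was at 3915, 3251, 3867, 4424 and 3216 CPM at 0.3 μg/kg and at 6914, 5889, 6047, 5660.0 and 5368 CPM at 1 μg/kg. The doses did not overlap, yet its 1.60-fold difference was not called (edgeR adjusted p = 0.0682). Cyp1a2 was at 12069 ± 1103 CPM and 17048 ± 1385 CPM (SD, n = 5 each), a 1.41-fold difference that was not called either (adjusted p = 0.136). The fit of the 10 libraries by themselves called Cyp1a1 (adjusted p = 0.00444), together with Ugt1a6a and Fmo2.

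The remaining tested targets were not called by edgeR's test in the fit of all libraries, and 4 of the 5 did not overlap between the doses. Tiparp was 4.61 ± 1.09 and 8.40 ± 1.65 CPM (SD, n = 5 each; adjusted p = 0.236). Ugt1a6a, a glucuronosyltransferase, was 10.3 ± 2.43 and 18.5 ± 3.67 CPM (adjusted p = 0.431). Fmo2 was 8.95 ± 0.825 and 15.3 ± 4.08 CPM (adjusted p = 0.316). These 3 genes differed by 1.71- to 1.83-fold. Ugdh, which makes UDP-glucuronate, was 283 ± 28.1 and 360.2 ± 35.1 CPM (adjusted p = 0.337). Nqo1, a quinone reductase, was 16.0 ± 2.11 and 22.7 ± 5.57 CPM and was the target that overlapped (adjusted p = 0.588). The receptor machinery itself was not called: over 6 genes, among them Ahr, Arnt, Hsp90aa1 and Hsp90ab1, the changes ran from −0.25 to 0.11 on the log2 scale, with a median of −0.06, 4 of them negative.

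**Figure D2:**
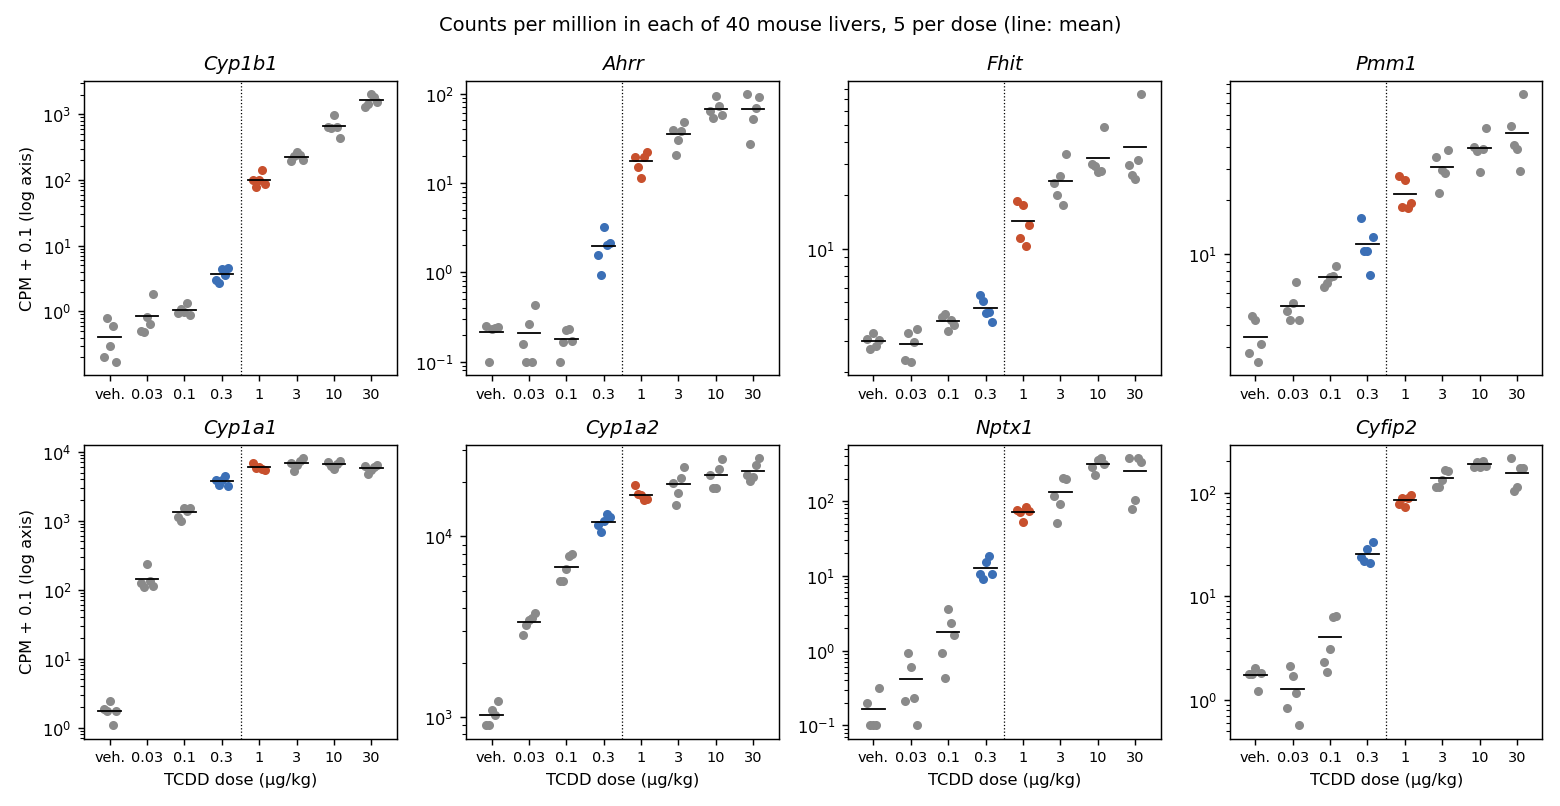
CPM plus 0.1 (log axis) in each of the 40 mice, 5 per group, for 8 genes against TCDD dose, with the mean as a line, the mice at 0.3 μg/kg in blue and those at 1 μg/kg in orange. Cyp1b1 climbs from 3.57 to 102 CPM across the dotted line and on to 1635 CPM at 30 μg/kg, whereas Cyp1a1 is already at 3734 CPM at 0.3 μg/kg and stays between 5767 and 6814 CPM from 1 μg/kg upward.

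To ask whether the step differed from equally wide steps elsewhere in the range, it was compared in the same model with the steps from 0.03 to 0.1 and from 3 to 10 μg/kg, which use other libraries. Against the lower step 2 genes were called (0.013% of those tested), and both are CYP1 genes. Cyp1b1 changed more from 0.3 to 1 than from 0.03 to 0.1 μg/kg (4.82 against 0.35 on the log2 scale, edgeR adjusted p of the difference = 5.58e-08). Cyp1a1 showed the opposite order, at 0.68 against 3.20 (edgeR adjusted p = 1.2e-08), since it went from 144 to 1325 CPM at the low doses.

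Against the step from 3 to 10 μg/kg 159 genes were called (1.03% of those tested), with a positive difference for 71 and a negative one for 88. Of the 159, 8 were genes of this step. These 8 had been called on the same mice at 0.3 and 1 μg/kg, so their difference is partly given by that choice. Cyp1b1, Ahrr, Cyfip2, Fhit, Saa1 and Saa2 changed more from 0.3 to 1 μg/kg, and Arsg had a lower value there, −0.61 against 0.23 on the log2 scale (edgeR adjusted p of the difference = 0.0148). For Saa1 and Saa2 the step rests on 1 mouse. The eighth gene, Klrb1b, had 0 counts in all mice at 0.3 μg/kg, so its fitted change depends on the prior count and is not compared. For Cyp1b1 the changes were 4.82 and 1.55 on the log2 scale (edgeR adjusted p of the difference = 4.67e-08). For Ahrr they were 3.21 and 0.95 (adjusted p = 0.00182). For Cyfip2 they were 1.72 and 0.45 (adjusted p = 0.0338), and for Fhit 1.65 and 0.42 (adjusted p = 0.0429).

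The genes that rose at this step were then read at the other doses. This is a description and not an independent check, because the libraries of those doses entered the filter and the estimate of the spread behind the calls, and the 10 libraries alone gave 24 of the 37 calls. Against vehicle, 0 of the 35 were called higher at 0.03 μg/kg by edgeR's test, where 0.0195% of all genes were, and Nptx1 and Pmm1 were at 0.1 μg/kg, where 0.0846% of all genes were. At 3 μg/kg 32 of the 35 were called higher (all genes: 4.53%), at 10 μg/kg 34 (13.6%) and at 30 μg/kg 32 (23.2%). The exceptions were Gbp5, Gm33447 and AC119228.1 at 3 μg/kg, Saa1 at 10 μg/kg, and Saa1, Saa2 and AC119228.1 at 30 μg/kg. The 35 genes were above vehicle at all 3 of these doses, called or not.

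Their levels kept climbing in most cases. The highest of the 8 group means was at 30 μg/kg for 27 of the 35 genes and at 10 μg/kg for 4. It was at 1 μg/kg itself for Gbp2b, Saa1, Saa2 and AC119228.1. For Saa1, Saa2 and AC119228.1 that mean was raised by a single mouse each, at 1965, 1518 and 1.65 CPM. The next highest mouse was at 59.6, 34.4 and 0.593 CPM. Gbp2b, an interferon-inducible GTPase, was 3.25 CPM at 0.3, 11.5 at 1, 9.22 at 3, 8.62 at 10 and 6.65 CPM at 30 μg/kg. On the lower side, 13 of the 35 were at least 1.5-fold above vehicle in the 0.3 μg/kg mice already. Of the others 18 were within 1.5-fold of it and 4 were below. Those 4 were Klrb1b, Gm33447, AC119228.1 and Sash3, and none was called lower there by edgeR's test. Apart from Sash3, they had at most 3 counts in every mouse at 0.3 μg/kg, so their fitted values depend on the prior count.

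**Figure D3:**
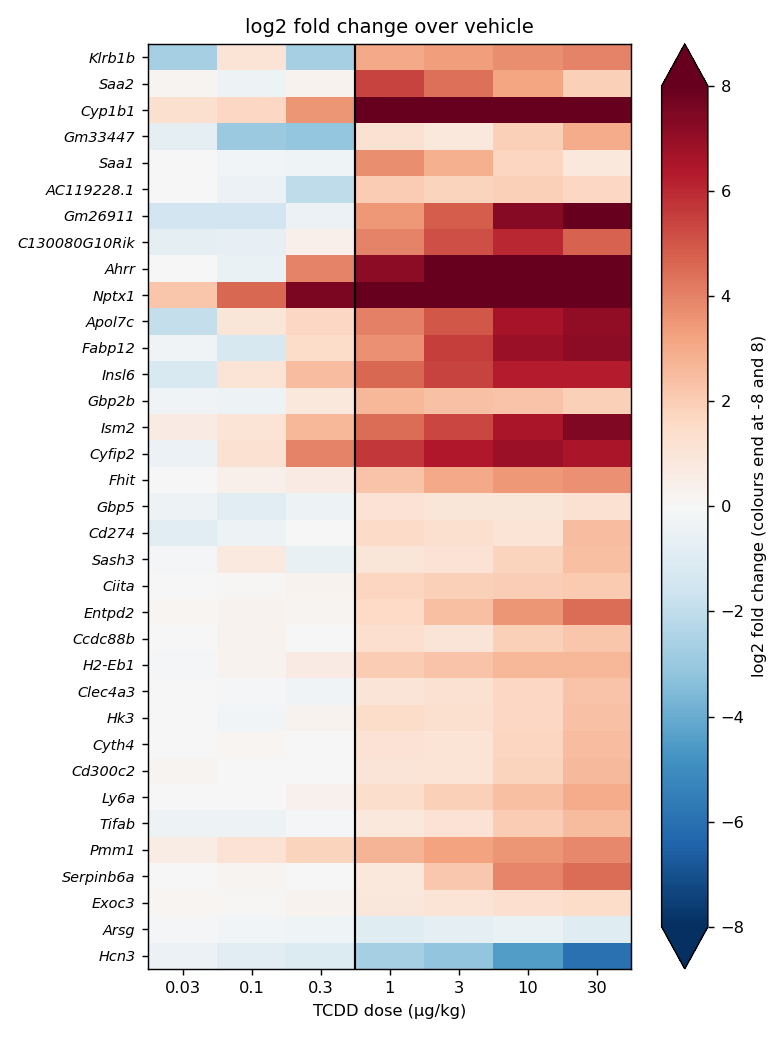
Fitted log2 fold change over vehicle at the 7 TCDD doses for 35 of the 37 called genes, ordered by their change from 0.3 to 1 μg/kg, with red above and blue below vehicle. The black line lies between 0.3 and 1 μg/kg. That all 33 plotted genes that rose are higher just right of it than just left follows from how they were chosen. Nptx1, at 7.51 at 0.3 and 10.01 at 1 μg/kg, is the gene with the largest value already before the line. Every vehicle mouse had at most 3 counts of Nptx1, so both values depend on the prior count.

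Further genes that rose belonged to no list. Nptx1, a neuronal pentraxin known from synapses, was at 10.4, 9.01, 15.4, 18.2 and 10.4 CPM in the mice at 0.3 μg/kg and at 76.9, 72.0, 52.9, 82.9 and 74.0 CPM at 1 μg/kg, while vehicle mice averaged 0.0629 CPM. Its 5.66-fold rise (log2 2.50 ± 0.40 SE, edgeR adjusted p = 0.000484) came on top of a level already well above vehicle. Cyfip2, which regulates actin through the WAVE complex, was at 24.0, 21.8, 28.6, 20.7 and 33.3 CPM and then at 78.1, 88.4, 72.8, 88.5 and 95.2 CPM. The doses were again separate, with a 3.29-fold rise (adjusted p = 2.72e-05) from a vehicle mean of 1.63 CPM.

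Insl6, a relaxin-family peptide of the testis, rose 4.36-fold (0.846 ± 0.288 CPM at 0.3 μg/kg, 3.70 ± 0.550 CPM at 1 μg/kg, SD, n = 5 each, edgeR adjusted p = 1.54e-05). Fabp12, a fatty acid-binding protein, rose 4.63-fold (0.378 ± 0.195 CPM at 0.3 μg/kg, 1.80 ± 0.852 CPM at 1 μg/kg, adjusted p = 0.0063). Apol7c, an apolipoprotein L gene, rose 5.37-fold (0.373 ± 0.165 CPM at 0.3 μg/kg, 2.00 ± 0.453 CPM at 1 μg/kg, adjusted p = 0.0175), a call lost without replicate 1, 3 or 5 at 0.3 μg/kg. Ism2, which encodes a secreted isthmin-family protein, rose 3.44-fold to 3.48 ± 0.953 CPM (adjusted p = 0.00333). These 4 genes rest on few reads, on average 6.4 to 17.8 counts per library at 0.3 μg/kg and 30.8 to 63.4 at 1 μg/kg.

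Fhit, a diadenosine triphosphate hydrolase and fragile-site gene, was at 5.39, 4.94, 4.25, 4.31 and 3.77 CPM at 0.3 μg/kg and at 18.6, 11.4, 17.6, 10.2 and 13.6 CPM at 1 μg/kg. All mice at the higher dose were above those at the lower one (3.14-fold, edgeR adjusted p = 7.04e-05). Entpd2, an ecto-ATPase of portal fibroblasts, rose 2.64-fold (1.87 ± 0.333 CPM at 0.3 μg/kg, 4.96 ± 0.921 CPM at 1 μg/kg, adjusted p = 0.00211). Serpinb6a, an intracellular serpin, rose 1.77-fold (8.37 ± 1.89 CPM at 0.3 μg/kg, 14.8 ± 2.37 CPM at 1 μg/kg, adjusted p = 0.0403), and the lowest mouse at 1 μg/kg, at 11.6 CPM, lay level with the highest at 0.3 μg/kg to 3 digits. Serpinb6a was called in 2 of the 10 leave-one-out fits, whereas Fhit and Entpd2 were called in all of them.

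For 5 of the genes that rose, every mouse at 0.3 μg/kg was at or under 3 counts, which is 0.157 to 0.199 CPM in these libraries. Klrb1b, an inhibitory receptor of natural killer cells, had 0 counts in all 5 mice at 0.3 μg/kg and 31 counts in total at 1 μg/kg, which makes it at least 2.09-fold higher when each empty library is set at 3 counts. The other 4 genes had a few counts and are given as ratios with exact intervals, a different basis from that bound. Gm33447 had 1 and 30 counts over the 5 libraries of each dose, a ratio of 30.9 (95% exact interval 5.14 to 1261). AC119228.1 had 3 and 60 counts (20.6, 6.72 to 103), Gm26911 had 3 and 53 (18.2, 5.90 to 91.1) and C130080G10Rik had 3 and 41 (14.1, 4.49 to 71.1). These intervals cover counting error alone, and none of the 5 genes was called in every leave-one-out fit. Vehicle means were 0.149 CPM for Gm33447 and 0.165 CPM for AC119228.1, against 0.0111 and 0.0383 CPM at 0.3 μg/kg. At 1 μg/kg neither was called against vehicle by edgeR's test (adjusted p = 0.431 and 0.134). Klrb1b, Gm26911 and C130080G10Rik were called higher there. For Gm33447 replicate 3 at 1 μg/kg had 0 counts, and for AC119228.1 replicate 4 held 30 of the 60. Gm26911 went on to 25.4 CPM at 30 μg/kg.

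The next group was antigen presentation by MHC class II, which professional antigen-presenting cells such as macrophages, dendritic cells and B cells use to display peptides to CD4 T cells. Of 7 listed genes 2 were called (all genes: 0.241%) and 5 were higher without overlap (all genes: 1.77%). All 7 had a positive change, and the median change was 1.28 on the log2 scale. Ciita, the transactivator that switches on the class II genes, was at 1.11, 2.47, 1.10, 3.58 and 1.27 CPM at 0.3 μg/kg and at 5.87, 5.20, 5.04, 5.34 and 4.79 CPM at 1 μg/kg. H2-Eb1, a class II beta chain, was at 27.7, 22.5, 10.9, 41.8 and 14.6 CPM and then at 64.6, 77.2, 44.5, 51.8 and 58.5 CPM. The doses did not overlap for either gene, and the mice at 0.3 μg/kg were the more scattered, with replicate 4 highest and replicate 3 lowest for both genes.

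Ciita rose 2.78-fold (edgeR adjusted p = 0.0063) and was called in 9 of 10 leave-one-out fits, the exception being without replicate 3 at 0.3 μg/kg (adjusted p = 0.0634). H2-Eb1 rose 2.53-fold (adjusted p = 0.0312) but was called in 2 of them, without replicate 4 at 0.3 μg/kg or replicate 3 at 1 μg/kg, and adjusted p ran up to 0.182 without the others. The partner chains and the invariant chain had similar values short of the threshold. H2-Aa was 27.6 ± 15.4 and 66.9 ± 10.3 CPM (SD, n = 5 each; edgeR adjusted p = 0.0629). H2-Ab1 was 32.2 ± 16.4 and 77.9 ± 16.8 CPM (adjusted p = 0.0696), and Cd74, the invariant chain, was 63.0 ± 24.4 and 136 ± 20.8 CPM (adjusted p = 0.0654). Of the 7 genes, 5 were called without replicate 4 at 0.3 μg/kg and 0 without replicate 3 of that dose (7 of 7 at an unadjusted p under 0.05 with every library).

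Other immune genes rose as well. Cd274, the checkpoint ligand PD-L1, lay between 1.17 and 1.77 CPM in 4 mice at 0.3 μg/kg and at 3.45 CPM in replicate 4, and then at 6.34, 4.19, 4.41, 6.33 and 5.81 CPM (2.92-fold, edgeR adjusted p = 0.029). The interferon-inducible GTPases Gbp2b and Gbp5 rose 3.58- and 3.07-fold (adjusted p = 0.0312 for each). In these 3 genes no mouse at 0.3 μg/kg reached the lowest mouse at 1 μg/kg, but their calls were held in only 2 to 4 of the 10 leave-one-out fits.

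Hk3, the hexokinase of myeloid cells, rose 2.30-fold (4.29 ± 1.27 to 9.84 ± 0.828 CPM, SD, n = 5 each, edgeR adjusted p = 0.0175). Cyth4, a guanine nucleotide exchange factor of blood cells, rose 2.23-fold (3.76 ± 0.644 to 8.40 ± 0.684 CPM, adjusted p = 0.00309). Ly6a, the Sca-1 antigen, rose 2.06-fold (9.43 ± 2.36 to 19.4 ± 3.63 CPM, adjusted p = 0.0195). Of these only Cyth4 was called in every leave-one-out fit. Ccdc88b, Clec4a3, Cd300c2, Sash3 and Tifab, which are expressed mainly in blood cells, rose 1.99- to 2.91-fold from group means of 0.653 to 1.90 CPM. Their calls held in 9 (Ccdc88b), 7 (Cd300c2), 5 (Tifab), 4 (Clec4a3) and 2 (Sash3) of the 10 leave-one-out fits, and Sash3 overlapped between the doses.

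Macrophage markers were read beside these genes. Of 15 markers of macrophages and Kupffer cells 0 were called by edgeR's test (11 at an unadjusted p under 0.05), all 15 had a positive change with a median of 0.61 on the log2 scale, and 6 were higher without overlap (all genes: 1.77%). Their summed level was 264 to 444 CPM at 0.3 μg/kg, 512 to 561 CPM at 1 μg/kg and 268 to 371 CPM in vehicle mice, so that the doses were separate. The fit of the 10 libraries alone called 1 of the 15, Cd68 (adjusted p = 0.0278). None of the 15 was at 0 in all 10 mice. Among them C1qc was 25.4 and 41.0 CPM on average, Cd68 5.05 and 8.38 CPM, and the Kupffer cell marker Clec4f 75.9 and 98.3 CPM. In whole liver more cells of a type and more RNA per cell cannot be told apart, and the part of these markers in the immune calls was not tested.

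The lymphocyte markers were much scarcer. Of 16 tested markers of T, B and NK cells 15 had a positive change, with a median of 0.75 and 0 called (4 at an unadjusted p under 0.05), and their summed level overlapped between the doses (17.7 to 31.0 against 24.3 to 46.3 CPM). Of 11 neutrophil markers 5 were tested and 0 called (1 at an unadjusted p under 0.05), and their sum was 2.10 to 3.45 CPM at 0.3 μg/kg and 3.97 to 6.05 CPM at 1 μg/kg. Chemokines and cytokines had a median of 0.53 with 14 of 16 positive and a summed level of 28.1 to 59.3 against 59.9 to 69.1 CPM, and interferon-stimulated genes 0.20 with 12 of 14 positive. Neither list had a called member by edgeR's test, with 5 and 4 members at an unadjusted p under 0.05.

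**Figure D4:**
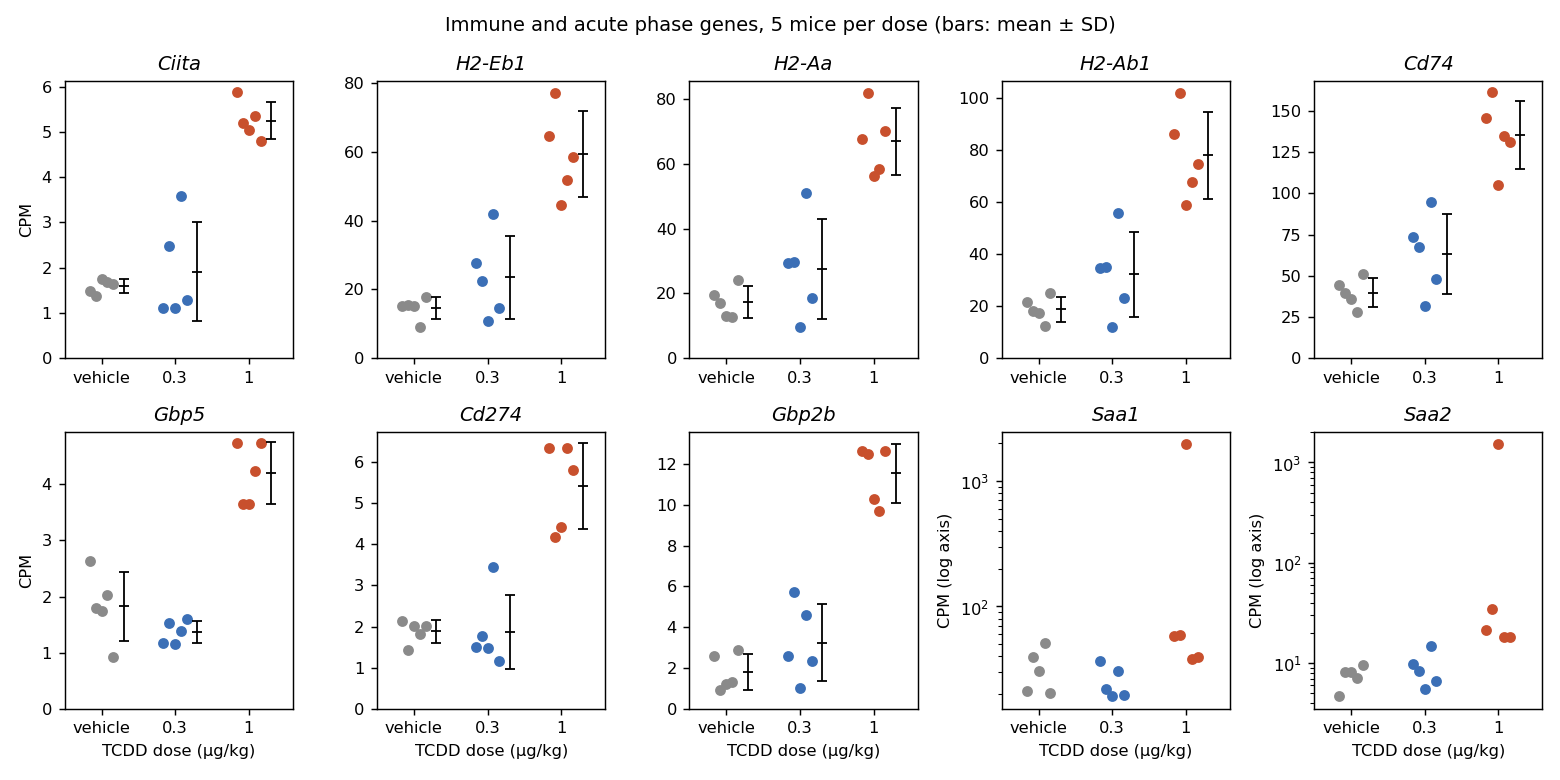
CPM in each of 5 mice given vehicle, 0.3 or 1 μg/kg TCDD for class II, immune and serum amyloid genes, with the mean ± SD beside the points except for Saa1 and Saa2, which are on log axes. In the first 8 panels every orange point lies above every blue one. The class II genes plotted are the 5 of 7 listed that were higher without overlap. In the last 2 panels a single mouse stands at 1965 and 1518 CPM. The other 4 at that dose stay at 38.2 to 59.6 and 18.2 to 34.4 CPM.

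The serum amyloid genes rested on 1 mouse. Saa1, an acute phase protein of the liver, was at 36.9, 22.1, 19.3, 30.4 and 19.7 CPM at 0.3 μg/kg and at 58.6, 59.6, 1965, 38.2 and 39.5 CPM at 1 μg/kg. Saa2, its near-identical neighbour, was at 9.73, 8.30, 5.46, 14.9 and 6.59 CPM and then at 21.3, 34.4, 1518, 18.3 and 18.2 CPM. The mice did not overlap between doses, but replicate 3 at 1 μg/kg was more than an order of magnitude above the rest. With it the changes were 4.07 and 5.17 on the log2 scale (edgeR adjusted p = 0.0354 and 0.029), and without it they were 0.93 and 1.36 and neither was called. Reads that fit both genes are left out of the counts, so their split is uncertain.

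The same mouse was the highest of its group for Orm2, another acute phase gene, at 85.3 CPM against 11.0 to 15.3 CPM in the other 4, and for Lcn2, at 24.6 against 5.41 to 8.81 CPM. Orm2 was not called (edgeR adjusted p = 0.0696), nor was Lcn2 (adjusted p = 0.463), and these examples were chosen after their values were seen. It was the highest of the 5 mice at 1 μg/kg for 12 of the 13 listed acute phase genes, Saa3 being the exception. Haptoglobin (Hp), for example, was 2737 CPM in it and 1347 to 1703 CPM in the other 4. Over the 13 genes the median change was 0.12 with 7 positive (all genes: 52.7%) and 5 at an unadjusted p under 0.05. Of them 2 were called (all genes: 0.241%) and 4 were higher without overlap (all genes: 1.77%). Female-biased liver genes had 1 called member of 12 tested (all genes: 0.241%), with 2 at an unadjusted p under 0.05. Their median was 1.00, or 0.72 with the 3 members at the floor of 3 counts set to their bound. The summed level of that list overlapped between the doses (21.7 to 51.7 against 50.1 to 252 CPM), and vehicle mice held 20.0 to 145 CPM. Of 15 male-biased genes 13 had a negative change with a median of −0.34 and 0 called (1 at an unadjusted p under 0.05). Mup3 was called lower in the fit of the 10 libraries alone (edgeR adjusted p = 0.0118).

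In the fit of all libraries 2 genes fell, against 11 in the fit of the 10 libraries alone and 0 with scaling by total counts. Arsg, a lysosomal sulfatase, was at 18.8, 15.1, 15.7, 15.6 and 15.5 CPM at 0.3 μg/kg and at 12.6, 9.63, 10.4, 10.2 and 10.2 CPM at 1 μg/kg. Every mouse at the higher dose was below every mouse at the lower, a drop of 0.61 ± 0.13 on the log2 scale (edgeR adjusted p = 0.031). Hcn3, a pacemaker channel subunit, was at 8.62, 5.42, 4.09, 2.79 and 5.36 CPM and then at 1.01, 2.45, 2.27, 0.991 and 1.97 CPM, a drop of 1.60 ± 0.37 (adjusted p = 0.0412).

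Hcn3 declined in steps through the whole range, with means of 11.0 CPM in vehicle, 5.25 at 0.3, 1.74 at 1 and 0.170 CPM at 30 μg/kg. Arsg was 20.5 CPM in vehicle, 10.6 at 1, 14.4 at 10 and 10.6 CPM at 30 μg/kg. The calls were fragile: Arsg was called in 3 and Hcn3 in 2 of the 10 leave-one-out fits, and neither when libraries were scaled by total counts alone.

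**Figure D5:**
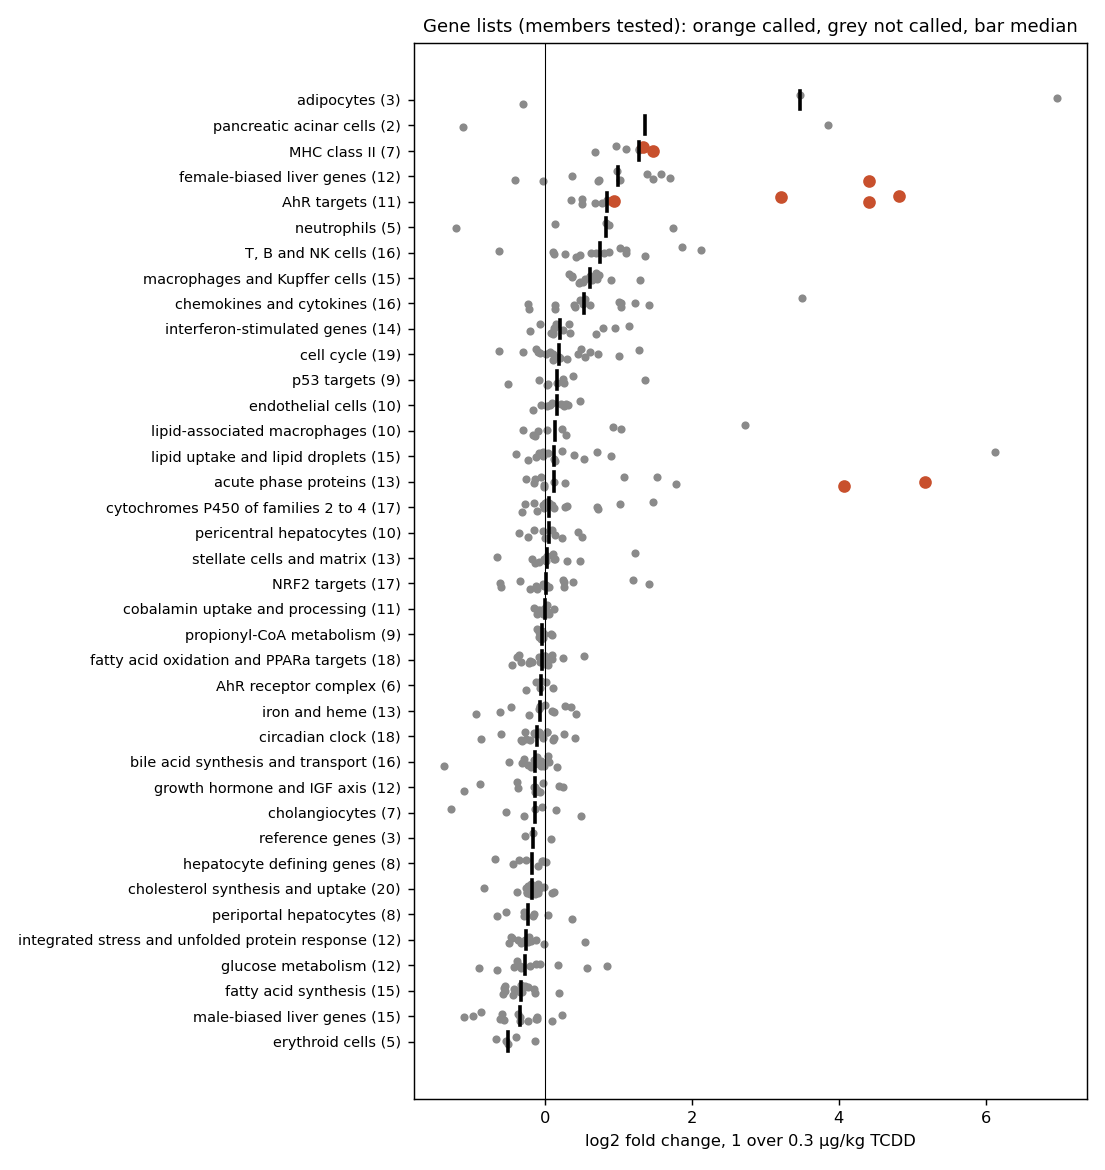
Fitted log2 fold change from 0.3 to 1 μg/kg for each tested member of 38 gene lists, ordered by list median (black bar), with called members in orange and the rest in grey. The called members sit in 4 lists, and all other lists have grey points alone.

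Called members were found in 4 of the 38 lists. Lipid and sugar metabolism had no called member by edgeR's test, though most values pointed down. Fatty acid synthesis genes had 14 of 15 negative changes with a median of −0.33, 3 lower without overlap (all genes: 0.989%) and 3 at an unadjusted p under 0.05. Cholesterol synthesis and uptake genes had 18 of 20 negative with a median of −0.18 and 1 at an unadjusted p under 0.05. Glucose metabolism had 9 of 12 negative with a median of −0.27, where Pklr, the liver pyruvate kinase, was 133 ± 23.0 and 71.1 ± 5.98 CPM (SD, n = 5 each; adjusted p = 0.236), and was called lower when the 10 libraries were fitted alone (adjusted p = 0.00214). Fatty acid oxidation genes had a median of −0.04, bile acid genes −0.13 and lipid uptake genes 0.12. In the last list the fatty acid translocase Cd36 was 92.2 ± 23.2 and 172 ± 27.1 CPM without overlap (adjusted p = 0.15), and was called higher in that fit of 10 libraries (adjusted p = 0.0278).

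Genes of propionyl-CoA metabolism and of cobalamin uptake and processing, the pathways the study was built around, barely differed over the step. The 9 propionyl-CoA genes ran from −0.11 to 0.09 on the log2 scale and the 11 cobalamin genes from −0.15 to 0.12, with 0 called and 0 at an unadjusted p under 0.05. NRF2 targets, which respond to oxidative stress, had a median of 0.01 and 0 called (2 at an unadjusted p under 0.05). Hepatocyte defining genes had 7 of 8 negative with a median of −0.18, among them Apoa1 at 5785 ± 1487 and 3607 ± 777 CPM (adjusted p = 0.543). Markers of endothelial cells, stellate cells and cholangiocytes had medians of 0.16, 0.03 and −0.14, with 0 called by edgeR's test (3, 0 and 0 at an unadjusted p under 0.05). The 5 tested erythroid markers were all negative with a median of −0.51, at a summed 198 to 352 CPM at 0.3 μg/kg and 173 to 248 CPM at 1 μg/kg.

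Adipocyte and pancreatic acinar markers were checked because fragments of these tissues can adhere to liver. Of 3 tested adipocyte markers, Plin1 averaged 0 counts at 0.3 μg/kg and 14.6 at 1 μg/kg, and Cfd averaged 4.8 and 51.4 counts. For all 3 the mice of the doses overlapped, so these means do not describe every mouse. Neither they nor Car3 were called by edgeR's test (2 at an unadjusted p under 0.05). The summed acinar markers were at most 0.577 CPM in any mouse at these doses.

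As a summary of the 10 livers, principal components were computed from the 500 most variable genes. The first held 21.5% of the variance, with scores of −25.9 to 2.22 at 0.3 μg/kg and 4.67 to 11.6 at 1 μg/kg, so the doses did not overlap on it. A 2-sided exact permutation test gave p = 0.00794, the smallest that 5 mice against 5 allow, and 0.0238 after adjustment over 3 components. The mice at 0.3 μg/kg were the more spread out on this axis. With all genes tested in place of 500, the scores overlapped on the first component (adjusted exact p = 0.0833).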

How the data were processed

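RNA-Seq was run on the livers of 40 mice, 5 per dose, 1 mouse per library. The authors deposited raw counts per gene from STAR (paired reads) and a table of normalized log2 values for 23120 genes. The submitters' processing notes name FastQC 0.11.7, Trimmomatic 0.39, STAR 2.7.3a and the builds GRCm39 and mm10 without saying which served the counts, so coordinates come from RefSeq (GRCm38.p6) alone. Unstranded counts were used, since the first strand took 50.0 to 50.3% of stranded counts. Of the reads in the 10 libraries, 76.1 to 79.7% lay in genes, 3.79 to 6.80% were unmapped, 5.81 to 6.54% mapped to several places, 4.43 to 7.02% lay in no gene and 4.97 to 5.53% were ambiguous, and these last 4 classes were left out of library sizes.

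Counts of all 40 libraries were fitted by dose in edgeR 4.0.16 (R 4.3.3) with TMM scaling, filterByExpr (minimum count 10, minimum total 15), the quasi-likelihood test and Benjamini-Hochberg adjustment, and doses were compared by contrasts. CPM used TMM library sizes, and log2 CPM a prior count of 2. Fitted changes used edgeR's default prior count, and 3 counts served as the floor. The code was tested on simulated data with known changes. Named genes were the 12 largest rises and falls among called genes without overlap. A mean of at least 100 counts was required of them in whichever dose group had more counts. Called list members, all AhR targets and 3 reference genes were named too. The other called genes described were named after their values were seen. Results of some genes are not reported here, although counts and list medians include them. Members and lists were chosen with earlier results of these data known. Each library is labelled as a separate mouse, and replicate numbers follow accession order and pair nothing. Alternatives were DESeq2 1.42.0, limma 3.58.1 on the deposited log2 values, other scalings, filters and count columns, the numbering run of the titles, and leaving out each library. Intervals and floors cover counting error only.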

Additional observations from a re-analysis of the deposited data

Results flagged for a closer look

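Of 99 groups of 5 mice examined, 9 held a mouse whose gap to its nearest neighbour, divided by the range of the group, passed Dixon's critical value of 0.71, where chance gives about 4.95. At 1 μg/kg the highest mouse stood apart for Saa1 (replicate 3, 1965 CPM), Saa2 (replicate 3, 1518 CPM), AC119228.1 (replicate 4, 1.65 CPM) and Arsg (replicate 1, 12.6 CPM), and the lowest mouse for Tifab (replicate 4, 2.53 CPM). At 0.3 μg/kg the highest mouse stood apart for Cd274 (replicate 4, 3.45 CPM), Arsg (replicate 1, 18.8 CPM), C130080G10Rik (replicate 1, 0.167 CPM) and Gm33447 (replicate 1, 0.0556 CPM). The last 2 values lie at or under the floor of 3 counts. Saa1 and Saa2 share the same mouse, while replicate 1 at 0.3 μg/kg stood apart for 3 genes.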

How the results depend on the processing

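No paired analysis was possible because the replicate numbers only follow accession order and name no shared litter, batch or day. The 37 calls became 67 with DESeq2 (64 higher), 17 with the strand-specific counts (17 higher, 0 lower), which hold 54.8% of the unstranded ones, and 4 in run 1 and 5 in run 2 of the title numbers (0 lower in each), where fewer mice were compared. With total counts alone there were 55 calls, 55 higher and 0 lower, with a median change of 0.08 over all genes. Without a filter 1 gene was lower, and the 10 libraries alone gave 54 calls, 11 of them lower and 24 shared with the 37. Without 1 library the count was 12 to 42, with 12 to 40 higher and 0 to 2 lower. The genes called for a difference from the step 0.03 to 0.1 μg/kg numbered 2, and 4 with run and order as covariates. All 37 genes kept their sign wherever they were fitted, which largely follows from calling them on these same mice. Ahrr, Cyfip2, Cyp1b1 and Exoc3 were called under all 23 alternatives.

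AhR targets had 7 called members in the 10 libraries alone, 2 in either run and 3 to 4 without 1 library. MHC class II had 5 with total counts alone, no filter, run and order as covariates or DESeq2, 4 with run as covariate, 1 with strand-specific counts, 0 in either run and 0 to 5 without 1 library. Acute phase proteins had 1 with strand-specific counts, 0 with either covariate fit, the 10 libraries alone, either run or limma, and 0 to 3 without 1 library. Female-biased genes had 2 in the 10 libraries alone or with DESeq2, 0 in either run and 1 without any 1 library. With all genes, the first principal component had an adjusted exact p of 0.0833. Over the 25 named genes, 473 of 575 values under alternatives kept direction and call, 94 lost the call and 8 gained it. Beyond what is shown for scaling and the run, the cause of these shifts was not tested. At these depths 3 counts are 0.157 to 0.199 CPM, which limits the genes with few reads.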
